A study of Mus musculus with 18 samples.

Results

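Voltage-gated sodium and calcium channel genes were examined in the brains of mice lacking Pcm1, a protein of the centriolar satellites around the base of the cilium. The genes were taken by symbol: protein-coding Scn genes numbered with an a or b ending, Cacna1, Cacna2d and Cacnb genes, and Cacng genes other than Cacng2, Cacng3 and Cacng8. Of 38561 genes counted, 37 met that rule, and the 36 with at least 10 counts in a library were kept, out of 17545 genes that reached this minimum. Scn4a, the sodium channel of skeletal muscle, never exceeded 4 counts and was left out. The 36 were 9 sodium channel alpha subunits, 4 sodium channel beta subunits, 10 calcium channel alpha1 subunits, 4 alpha2delta subunits, 4 calcium channel beta subunits and 5 gamma subunits.

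The study sequenced RNA from the frontal cortex, striatum and hippocampus of 3 Pcm1-/- mice (KO in the labels) and 3 wild-type littermates (WT), 18 libraries in all. All mice were adults on the C57 Bl6J background. The Pcm1-/- line came from gene-trap embryonic stem cells, so the allele is carried by every cell of the animal, and it was backcrossed to C57BL/6J. The same 6 animals gave all 3 regions, so regions were not independent of each other, and these bulk libraries cannot tell fewer cells of a type from less RNA per cell.

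Voltage-gated sodium channels open on depolarisation and carry the rising phase of the action potential. Each consists of a large alpha subunit that forms the pore and of smaller beta subunits that adjust gating and surface expression. Voltage-gated calcium channels turn depolarisation into calcium entry, which drives transmitter release, dendritic excitability and gene expression. Their alpha1 subunit forms the pore, while beta and alpha2delta subunits bring it to the membrane and shape its gating. Most of the gamma proteins studied here act on AMPA-type glutamate receptors, and only some are true calcium channel subunits.

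Libraries held 24950537 to 33405081 gene counts, and the 36 genes took 0.40% to 0.722% of them. Pcm1 lay between 11.8 and 17.6 CPM (counts scaled to a common library size by TMM) in the 9 KO libraries and between 120 and 172 CPM in the 9 WT libraries, so every library matched its genotype label. The summed level of 9 striatal projection neuron markers was 8986 to 11054 CPM in striatum and 203 to 349 CPM elsewhere, and that of 8 cortical glutamatergic markers was at most 129 CPM in striatum and at least 1892 CPM elsewhere. WT striatum replicate 3 stood apart: 5 choroid plexus markers summed to 5966 CPM there and to at most 164 CPM in the other striatum libraries. All 3 WT striatum libraries were from lane 5 and the KO striatum libraries from lanes 3 and 4, which means that in striatum the effects of lane and of genotype cannot be told apart.

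Scn1a and Cacna2d3 were the genes called between genotypes in frontal cortex, and the 250 bases before their RefSeq starts are shown for that reason. Sequences are on the gene's own strand (both minus) of GRCm38.p6, 5′ to 3′, at chr2:66440838-66441087 for Scn1a and chr14:29721865-29722114 for Cacna2d3. Capitals mark the GC box letters GGGCGG and the CCAAT box letters CCAAT, searched on both strands, and the kinds of match do not overlap in either window.
Scn1a: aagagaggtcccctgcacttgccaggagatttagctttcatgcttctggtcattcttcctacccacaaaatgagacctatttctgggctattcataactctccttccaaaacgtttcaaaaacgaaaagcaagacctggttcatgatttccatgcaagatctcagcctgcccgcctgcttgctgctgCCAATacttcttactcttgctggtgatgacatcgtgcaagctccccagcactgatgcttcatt
Cacna2d3: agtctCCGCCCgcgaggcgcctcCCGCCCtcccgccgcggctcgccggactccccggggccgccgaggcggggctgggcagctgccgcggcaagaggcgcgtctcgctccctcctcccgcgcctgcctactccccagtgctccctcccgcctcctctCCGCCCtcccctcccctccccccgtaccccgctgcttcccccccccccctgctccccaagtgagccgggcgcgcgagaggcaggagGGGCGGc
The Scn1a window was 46.8% G or C with 4 CpG dinucleotides, 1 CCAAT match and no GC box match. The Cacna2d3 window was 80% G or C with 30 CpG dinucleotides, 4 GC box matches and no CCAAT match. Neither held TATAAA. Among all 32851 RefSeq windows of this length, 32.7% held a GC box match, 33.8% a CCAAT match and 12.4% a TATAAA match. The table matched 26 of the 36 channel genes with 37 windows, of which 40.5% held a GC box match, 27% a CCAAT match and 5.41% a TATAAA match. A match describes letters and not a binding site.

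In WT brain the abundant sodium channel alpha genes were Scn2a, Scn8a and Scn1a, the alpha subunits of central axons, in that order of group means in the 3 regions. Levels between genes are given as CPM per kb of exon, mean ± SD over 3 libraries. Frontal cortex had 39.0 ± 7.67 for Scn2a, 31.7 ± 2.33 for Scn8a and 19.3 ± 2.10 for Scn1a. In hippocampus Scn2a at 27.4 ± 3.18 and Scn8a at 26.5 ± 1.40 did not differ beyond their spread, nor did they in frontal cortex. Scn3a, known mainly from the developing brain, had 3.08 ± 0.617 in frontal cortex and 6.68 ± 0.682 in striatum. Scn7a, which encodes a sodium-sensing channel rather than a classical voltage-gated one, had 1.16 ± 0.47 in frontal cortex. Scn9a, best known from sensory neurons, was under 1 CPM per kb in every group. The sensory neuron genes Scn10a and Scn11a had at most 10 and 14 counts in any library, and Scn10a had 0 counts in all 3 WT hippocampus libraries, so no fold is given for them.

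Among the beta subunit genes the level of Scn4b varied most between regions of those described here. Scn4b, which encodes the subunit linked to resurgent sodium current, had 409 ± 91.1 CPM per kb in WT striatum, 36.0 ± 4.87 in frontal cortex and 11.3 ± 1.20 in hippocampus. Scn4b thus made up 62.2% ± 4.37 of the summed beta subunit level in WT striatum, 7.79% ± 0.108 in frontal cortex and 3.23% ± 0.539 in hippocampus. Scn2b lay between 68.0 and 95.4 CPM per kb in the WT group means, and Scn3b between 21.8 and 55.6.

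Among the calcium channel alpha1 genes, Cacna1a (P/Q type) was highest in WT frontal cortex at 18.6 ± 0.822 CPM per kb, followed by the T-type gene Cacna1i at 14.1 ± 1.02 and the N-type gene Cacna1b at 13.6 ± 2.69, which did not differ from Cacna1i beyond its spread. In striatum Cacna1i led at 17.5 ± 3.07, with the T-type gene Cacna1h at 13.4 ± 1.16. In hippocampus Cacna1a at 15.4 ± 1.78 was followed by Cacna1h at 11.1 ± 1.40 and the R-type gene Cacna1e at 9.81 ± 0.482. The L-type genes of brain were lower, with Cacna1d between 2.78 and 4.02 and Cacna1c between 2.52 and 3.82 over the WT regions. Cacna1s, the skeletal muscle gene, had 15 to 34 counts in each of the 18 libraries, and Cacna1f, the retinal gene, had at most 15.

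Cacna2d1 was the leading alpha2delta gene of WT frontal cortex and hippocampus and Cacna2d3 that of striatum. Both encode proteins that raise channel abundance at the membrane, and the product of Cacna2d1 binds gabapentin. Cacna2d1 took 64.4% ± 4.74 of the summed alpha2delta level in frontal cortex and 55.8% ± 2.54 in hippocampus, against 19.0% ± 1.79 in striatum. Cacna2d3 took 22.6% ± 2.54, 28.0% ± 1.19 and 46.9% ± 1.44 in that order of regions, and Cacna2d2 12.5% ± 2.2, 15.4% ± 2.70 and 33.5% ± 3.04. Cacna2d4 stayed under 1% in each. Of the Cacnb genes, Cacnb3 led in frontal cortex at 77.2 ± 4.09 CPM per kb, and Cacnb1 had the highest mean in striatum at 42.8 ± 1.69, next to Cacnb3 at 37.6 ± 4.82. Of the 5 gamma genes of the set, Cacng7 was the highest in each WT region, 65.6 to 93.3 CPM per kb, while the muscle-type genes Cacng1 and Cacng6 had at most 69 and 61 counts in any library.

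**Figure D1:**
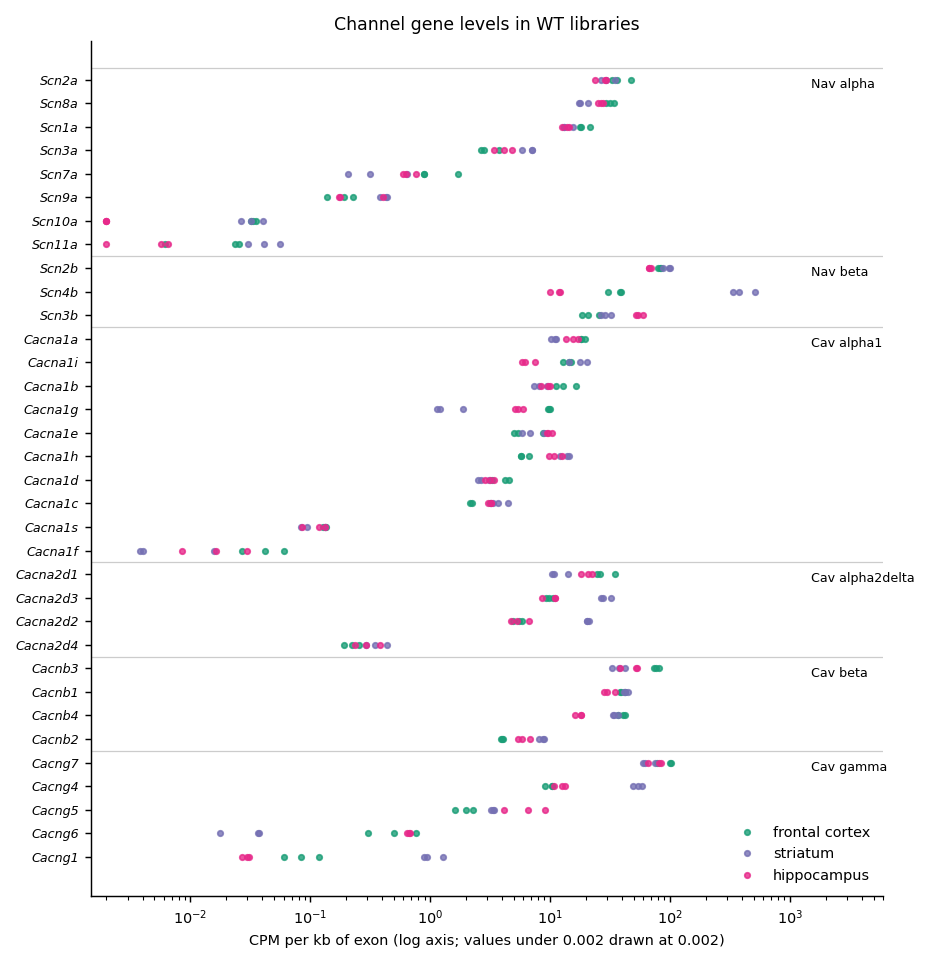
Level of 34 of the channel genes in the 9 WT libraries, as CPM per kb of exon on a log axis, 1 point per library, coloured by region and ordered by family. The striatum points of Scn4b, Cacng4, Cacna2d2 and Cacna2d3 lie to the right of the other regions, and those of Cacna1g to the left.

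**Figure D2:**
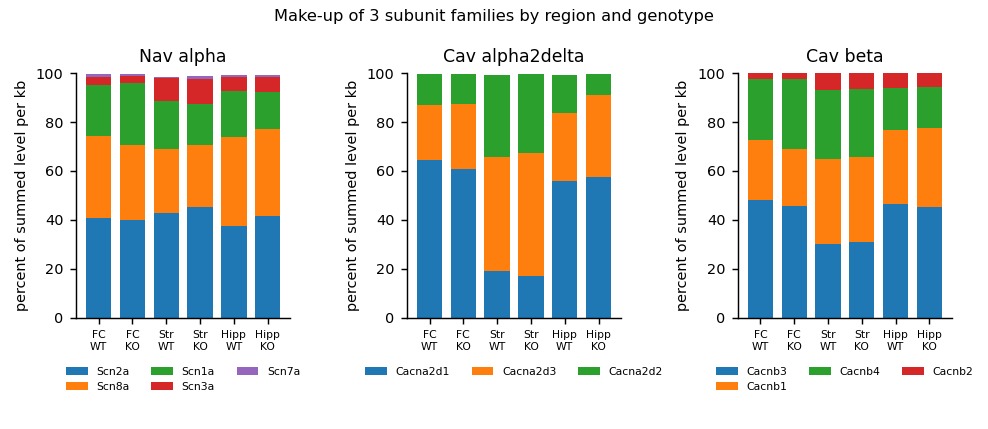
Mean share of each gene in the summed CPM per kb of its family, in percent over 3 libraries per bar, for sodium channel alpha, alpha2delta and calcium channel beta subunits by region and genotype. Genes under 1% in every group are not drawn. Striatum bars differ from cortex and hippocampus bars in the alpha2delta family, with Cacna2d3 at 46.9% of its level in WT and 50.2% in KO.

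Striatum and frontal cortex were compared in WT animals to ask which channel genes separate the regions. Scn4b, Cacng4, Cacna2d2 and Cacna2d3 were the genes most raised in striatum, and Cacna1g, Scn7a and Cacna2d1 were among those most reduced, counting genes at a mean log2 CPM of at least 1 whose groups did not overlap. By the quasi-likelihood test of edgeR, adjusted by the Benjamini-Hochberg method over all genes, 28 of the 36 were called at an adjusted p under 0.05, beside 41.5% of all genes. Of these, 15 were higher in striatum (background 20.6%) and 13 lower (background 20.9%). The median absolute log2 difference was 0.91 over the 36 genes and 0.37 over all genes tested. The 8 not called were Cacna1e, Cacna1i, Cacna1s, Cacnb1, Cacnb4, Scn10a, Scn11a and Scn2a.

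Scn4b had 2551, 1877 and 1688 CPM in the 3 WT striatum libraries and 194, 193 and 151 CPM in frontal cortex. Every striatum library was far above every cortex library, a log2 difference of 3.51 (SE 0.18, edgeR adjusted p = 2.3e-07). Cacng4, which encodes a gamma protein that accompanies AMPA receptors, had 194, 210 and 177 CPM in striatum and 37.1, 32.7 and 36.9 CPM in cortex, a log2 difference of 2.44 (SE 0.10, edgeR adjusted p = 7.6e-08). Cacna2d2 had 162, 161 and 170 CPM in striatum against 43.8, 46.7 and 39.4 CPM in cortex, 1.92 on the log2 scale (SE 0.12, edgeR adjusted p = 1.1e-06). Cacna2d3 rose by 1.56 (SE 0.12, edgeR adjusted p = 3.6e-06). In all 4 genes the groups were widely apart.

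The T-type gene Cacna1g, known for burst firing in thalamic relay cells, went the other way. It had 11.5, 12.2 and 19.2 CPM in WT striatum and 99.6, 98.1 and 101 CPM in frontal cortex, a log2 difference of -2.79 (SE 0.17, edgeR adjusted p = 8.2e-07). The highest striatum value was that of replicate 3, the library with choroid plexus RNA, in which 5 thalamic neuron markers also summed to 134 CPM against 37.2 and 46.7 CPM in the other WT striatum libraries. Cacna2d1 fell by 1.27 (SE 0.16, edgeR adjusted p = 0.00011). Scn7a had 1.51, 2.31 and 4.71 CPM in striatum and 6.51, 6.54 and 12.5 CPM in cortex, a log2 difference of -1.58 (SE 0.39, edgeR adjusted p = 0.0081). It is the least abundant of these genes, and its striatum values were the most scattered.

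Hippocampus and frontal cortex of WT animals were closer in their channel genes. In this comparison 19 of 36 were called beside 29.8% of all genes, 5 higher in hippocampus (background 14.5%) and 14 lower (background 15.3%). The median log2 difference was -0.30 over the 36 and -0.01 over all genes. Scn3b, a beta subunit gene, had 287, 327 and 297 CPM in hippocampus and 114, 101 and 141 CPM in cortex, 1.35 on the log2 scale (SE 0.12, edgeR adjusted p = 3.4e-05). Cacng5 differed more on average, by 1.73 (SE 0.25, edgeR adjusted p = 0.00056), but its hippocampus values of 25.1, 15.7 and 34.7 CPM were spread widely. Cacna1h was higher by 0.88 (SE 0.11) and Cacnb2 by 0.60 (SE 0.09), with edgeR adjusted p of 0.00022 and 0.00059.

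The genes most reduced in hippocampus were Scn4b, Cacnb4, Cacna1i and Cacna1g. Scn4b had 60.4, 49.5 and 59.1 CPM in hippocampus, below each cortex library, a log2 difference of -1.67 (SE 0.17, edgeR adjusted p = 5.6e-05). Cacnb4, a beta subunit gene whose loss causes the lethargic mouse, had 145, 162 and 164 CPM against 329, 377 and 363 CPM in cortex, -1.19 on the log2 scale (SE 0.09, edgeR adjusted p = 7.3e-06). Cacna1i fell by 1.11 (SE 0.14) and Cacna1g by 0.84 (SE 0.16), with edgeR adjusted p of 0.00021 and 0.0028. The WT hippocampus libraries held 188 to 442 CPM of 5 thalamic neuron markers and 2137 to 6249 CPM of choroid plexus markers, against at most 53.8 and 10.7 CPM in WT cortex, and the part of these cells in the differences was not tested.

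Striatum against hippocampus in WT gave 22 called genes beside 29.2% of all genes, 14 higher in striatum (background 14.4%) and 8 lower (background 14.8%). Scn4b showed the greatest difference of the named genes, 5.18 on the log2 scale (SE 0.19, edgeR adjusted p = 3.2e-08). Cacng4, Cacna2d2 and Cacna2d3 were again higher in striatum, by 2.14, 1.89 and 1.5 on the log2 scale (SE 0.10, 0.12 and 0.12). Cacna1g was lower in striatum by a log2 difference of -1.96 (SE 0.17), Cacng5 by -0.98 (SE 0.24) and Scn3b by -0.92 (SE 0.12), with edgeR adjusted p of 9.2e-06, 0.011 and 0.00023. These comparisons share the striatum and hippocampus libraries with the comparisons above.

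From the WT calls, 9 of the 36 genes were higher in striatum than in both other regions, beside 9.23% of all genes, 7 were highest in frontal cortex, beside 9.52%, and 2 in hippocampus, beside 4.61%. The striatum genes included Scn3a, Scn2b, Scn4b, Cacna2d2, Cacna2d3, Cacnb2, Cacng1 and Cacng4. The frontal cortex genes included Scn1a, Cacna1a, Cacna1b, Cacna1g, Cacna2d1 and Cacnb3, and the hippocampus genes were Scn3b and Cacng5. The remaining 18 had no region above both others. Of the alpha2delta genes, Cacna2d1 was highest in frontal cortex in WT but had no region apart in KO, while Cacna2d2 and Cacna2d3 were highest in striatum in both genotypes.

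The KO animals gave a separate reading of the same comparisons. In KO, 29 of 36 were called between striatum and frontal cortex (background 54.3%), 23 between hippocampus and frontal cortex (background 41.5%) and 25 between striatum and hippocampus (background 45.0%). For striatum against cortex, 25 genes were called in the same direction in both genotypes, 89.3% of the WT calls and 86.2% of the KO calls, beside 37.9% of all genes so called. For hippocampus against cortex it was 16 genes, 84.2% of the WT calls and 69.6% of the KO calls, beside 25.6% of all genes. For striatum against hippocampus it was 20 genes, 90.9% and 80.0%, beside 27.2% of all genes. Over all genes the shares of the WT calls were 91.1%, 85.8% and 93.3% in the same order of comparisons, and those of the KO calls 69.7%, 61.7% and 60.5%. None of the 36 channel genes was called in opposite directions in the 3 comparisons, and of all genes 0, 3 and 1 were. Of the 9 genes highest in striatum in WT, 7 were so in KO, and the counts were 6 of 7 for frontal cortex and 2 of 2 for hippocampus. Of all genes 8.66%, 8.26% and 4.00% were highest in striatum, frontal cortex and hippocampus in both genotypes.

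**Figure D3:**
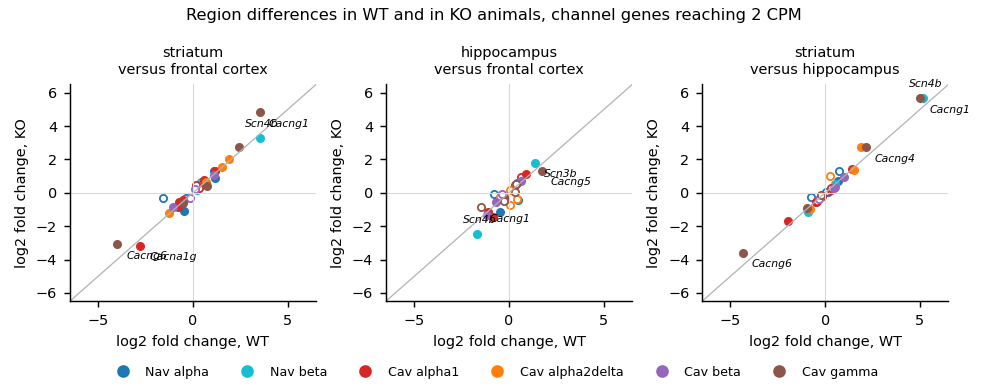
Log2 difference between regions in WT (horizontal) and KO (vertical) animals for 30 of the channel genes that reach 2 CPM in a library, 1 panel per pair of regions. Colour marks the family, filled points are called in both genotypes, and the grey line marks equal values. Scn4b and Cacna1g lie far from 0 on the same side in both genotypes when striatum is compared with frontal cortex.

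In frontal cortex, KO and WT were compared to ask which channel genes change without Pcm1. Scn1a and Cacna2d3 rose in KO, and the other 34 genes did not pass the test. Thus 2 of 36 were called beside 1.74% of all genes. At an unadjusted p under 0.05 there were 6, all higher in KO, which is 16.7% of the 36 beside 15.3% of all genes. Groups did not overlap in 11 of the 36, 8 of them higher in KO, beside 21.3% of all genes. The median log2 fold change was 0.02 over the 36 genes.

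Scn1a (ENSMUSG00000064329), the alpha subunit gene of fast-spiking inhibitory neurons that is mutated in Dravet syndrome, lies on chromosome 2 from 66270778 to 66440840 on the minus strand (GRCm38). It had 315, 285 and 293 CPM in KO frontal cortex and 203, 242 and 200 CPM in WT frontal cortex. All KO libraries were above all WT libraries. The log2 fold change was 0.46 (SE 0.08, edgeR adjusted p = 0.033), 37.6% higher in KO. In lane 4 the single KO library had 315 CPM and the single WT library 242 CPM, and in lane 5 the 2 KO libraries had 285 and 293 CPM and the WT library 200 CPM. The direction was therefore the same within lanes.

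Scn1a did not rise in the other regions. Striatum had 143, 139 and 133 CPM in KO and 145, 145 and 175 CPM in WT, with KO just below WT and no overlap. That difference did not pass the test, -0.16 on the log2 scale (SE 0.08, edgeR adjusted p = 0.44). Hippocampus had 130, 131 and 148 CPM in KO and 141, 156 and 159 CPM in WT, -0.18 on the log2 scale (SE 0.09, edgeR adjusted p = 0.55), and the groups overlapped. The fold change in hippocampus was lower than that in frontal cortex by a log2 difference of -0.63 (SE 0.13), and the same held for striatum. The test of the difference over all 3 regions gave an unadjusted p of 0.00011 and an edgeR adjusted p of 0.21 over all genes, so it did not pass, while DESeq2 called it. Scn1a made up 25.1% ± 1.11 of the summed sodium channel alpha level in KO frontal cortex and 20.6% ± 3.15 in WT.

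Cacna2d3 (ENSMUSG00000021991), an alpha2delta gene, lies on chromosome 14 from 28904943 to 29721864 on the minus strand. It had 116, 113 and 105 CPM in KO frontal cortex and 80.3, 92.4 and 85.6 CPM in WT. The groups did not overlap, and the log2 fold change was 0.36 (SE 0.07, edgeR adjusted p = 0.039), 28.6% higher in KO. In lane 4 the values were 116 CPM in KO and 92.4 CPM in WT, and in lane 5 113 and 105 CPM in KO and 85.6 CPM in WT.

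Both calls in frontal cortex depended on single libraries. Scn1a was no longer called without WT replicate 1 (edgeR adjusted p = 0.093) or without KO replicate 1, 2 or 3 (0.19, 0.081 and 0.12). Cacna2d3 was no longer called without WT replicate 1 or 2 (edgeR adjusted p = 0.093 and 0.066) or without KO replicate 1, 2 or 3 (0.21, 0.14 and 0.085). In these fits the log2 fold changes stayed between 0.31 and 0.49. With all 18 libraries in 1 fit Scn1a kept its call (edgeR adjusted p = 0.018) and Cacna2d3 did not (0.083).

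Cell type marker sums also differed between the genotypes in frontal cortex. The sum of 5 pan-neuronal markers was 9446 to 9733 CPM in KO and 8037 to 9241 CPM in WT, and that of 8 cortical glutamatergic markers 3148 to 3347 CPM in KO and 2783 to 2836 CPM in WT, neither overlapping. Of these lists 4 of 5 and 5 of 8 genes were higher on average in KO. Of 7 GABA interneuron markers 6 were higher in KO, and their sum was 968 to 1052 CPM against 794 to 976 CPM. The 6 oligodendrocyte, 6 microglia, 6 endothelial and 5 blood markers were all lower on average in KO. So were the 5 smooth muscle and meninges markers and the 4 oligodendrocyte precursor markers, with 1 gene called in each of these lists. With the neuron marker level as a covariate, chosen after seeing the data, Scn1a had a log2 fold change of 0.25 (edgeR adjusted p = 0.34) and Cacna2d3 0.27 (0.37), in a fit that called 4 genes in all. The marker level did not overlap between the genotypes, and its part in the values of Scn1a and Cacna2d3 was not tested beyond this fit.

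Scn4b came next in frontal cortex and did not pass. It had 253, 228 and 221 CPM in KO and 194, 193 and 151 CPM in WT, 0.38 on the log2 scale (SE 0.10, edgeR adjusted p = 0.10). The low WT value was that of replicate 3. That library stood apart in some other genes too. It had 222 CPM of Cacna1e against 127 and 136 CPM in the other WT cortex libraries, and 33.1 CPM of Pvalb against 69.2 and 63.4 CPM. DESeq2 called Scn4b as well (adjusted p = 0.0088), as 1 of 3 channel genes beside 5.14% of the genes to which it gave an adjusted p. Over 14 alternative fits the Scn4b log2 fold change lay between 0.10 and 0.44. It was called in 4 of them, and not with the neuron marker level as a covariate. Of 9 striatal projection neuron markers 7 were higher on average in KO cortex, with a sum of 322 to 349 CPM against 264 to 290 CPM in WT cortex, and their part was not tested.

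In striatum none of the 36 was called by edgeR's quasi-likelihood test, beside 0.0285% of all genes. At an unadjusted p under 0.05 there were 3, all higher in KO, beside 13.5% of all genes, and 6 did not overlap between genotypes, beside 19.0% of all genes. DESeq2 called 1, Cacna2d3, beside 3.84% of the genes to which it gave an adjusted p. Cacna2d3 had 324, 319 and 326 CPM in KO and 283, 243 and 233 CPM in WT, with no overlap. Its log2 fold change was 0.35 (SE 0.08, edgeR adjusted p = 0.17). Cacna2d2, an alpha2delta gene abundant in striatum, had 194, 182 and 192 CPM in KO and 162, 161 and 170 CPM in WT, 0.21 on the log2 scale (SE 0.06, edgeR adjusted p = 0.21). Scn7a had 5.93, 5.89 and 4.05 CPM in KO and 1.51, 2.31 and 4.71 CPM in WT, 0.90 on the log2 scale (SE 0.38, edgeR adjusted p = 0.36), and the groups overlapped. Without WT replicate 3, the highest WT library, the Scn7a value was 1.47 (edgeR adjusted p = 0.11), and without WT replicate 1 it was 0.59 (0.41). Without WT replicate 3 the number called stayed at 0. Of 9 striatal projection neuron markers 8 were higher on average in KO striatum, 6 of them without overlap, and their sum was 10245 to 11054 CPM in KO and 8986 to 10228 CPM in WT. The 6 oligodendrocyte, 6 microglia and 6 endothelial markers were all lower on average in KO. So were all 8 cortical glutamatergic, 5 thalamic, 5 choroid plexus and 5 blood markers, with median log2 fold changes of -0.85, -1.03, -3.44 and -1.02. Of the markers in these last lists only 1, a thalamic one, did not overlap between genotypes. The choroid plexus and thalamic sums were highest in WT replicate 3, and the cortical glutamatergic sum in WT replicate 1. The part of these cell types in the values of Cacna2d3 and Cacna2d2 was not tested.

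In hippocampus none of the 36 was called by edgeR either, beside 0.0171% of all genes. At an unadjusted p under 0.05 there were 9, 4 higher and 5 lower in KO, beside 9.89% of all genes, and 12 did not overlap, beside 17.1% of all genes. DESeq2 called 3, beside 1.77% of the genes to which it gave an adjusted p, and the edgeR fit over all 18 libraries called 2, beside 1.17% of all genes. Cacna2d3 had 132, 131 and 116 CPM in KO and 75, 96.7 and 96.7 CPM in WT, 0.48 on the log2 scale (SE 0.11, edgeR adjusted p = 0.39). Cacna2d2 had lower values in KO, with 24.1, 27.0 and 35.2 CPM in KO and 42.2, 37.7 and 53.5 CPM in WT, -0.65 on the log2 scale (SE 0.18, edgeR adjusted p = 0.40). Cacna1g had 30.9, 38.0 and 47.2 CPM in KO and 60.8, 51.9 and 55.1 CPM in WT, -0.55 on the log2 scale (SE 0.15, edgeR adjusted p = 0.40). In each of these 3 genes the groups did not overlap, and the KO library closest to WT for the last 2 was replicate 3.

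Thalamic neuron markers were lower in the same KO hippocampus libraries. All 5 were lower on average in KO, and their sum was 84.7, 69.7 and 214 CPM in KO and 442, 188 and 408 CPM in WT. With this level as a covariate, chosen after seeing the data, Cacna2d2 and Cacna1g both had a log2 fold change of -0.19, and Cacna2d3 had 0.29, each at an edgeR adjusted p of 0.97. Leaving out KO replicate 3 made Cacna2d2 the only channel gene called in the test of a genotype effect that differs between regions. Other lists differed in hippocampus too. The 6 oligodendrocyte, 6 microglia, 6 endothelial, 5 smooth muscle and 5 blood markers were all lower on average in KO, with no overlap for the 5 blood markers and 4 of the endothelial ones, and 6 of 8 cortical glutamatergic markers were higher. The part of these cells was not tested, nor that of thalamic tissue beyond the values above.

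Cacna2d3 was the channel gene with the smallest unadjusted p in both striatum and hippocampus and the second smallest in frontal cortex. In each region its KO libraries lay above its WT libraries. Because the 3 regions came from the same animals, these are not 3 separate tests, and the counts of each animal were therefore summed over regions, a choice made after seeing the data. The sums gave 184, 191 and 177 CPM in the 3 KO animals and 154, 135 and 143 CPM in the 3 WT animals. Striatum libraries held 6684 to 10014 counts of Cacna2d3 and the other libraries 1948 to 4001, so the sums lean on striatum. In striatum lane and genotype cannot be told apart. Of the 36 genes only Cacna2d3 was called, beside 1.39% of all genes, with a log2 fold change of 0.35 (SE 0.06, edgeR adjusted p = 0.042). It was no longer called in 5 of the 6 fits that left out an animal, where the adjusted p lay between 0.089 and 0.23, and it stayed called without WT animal 1 (0.034). The log2 fold change stayed between 0.31 and 0.40 in these fits. WT animal 1 was replicate 1 in striatum but replicate 3 in frontal cortex and hippocampus.

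The test of whether the genotype effect differs between regions called none of the 36, beside 0.0114% of all genes. Its fit held no animal term, although each animal gave every region. At an unadjusted p under 0.05 there were 8, beside 5.54% of all genes, and DESeq2 called 2, Scn1a and Cacna2d2, beside 0.635% of the genes to which it gave an adjusted p. After Scn1a came Cacna2d2, with a log2 fold change of 0.12 in frontal cortex, 0.21 in striatum and -0.65 in hippocampus (unadjusted p = 0.00034, edgeR adjusted p = 0.32).

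**Figure D4:**
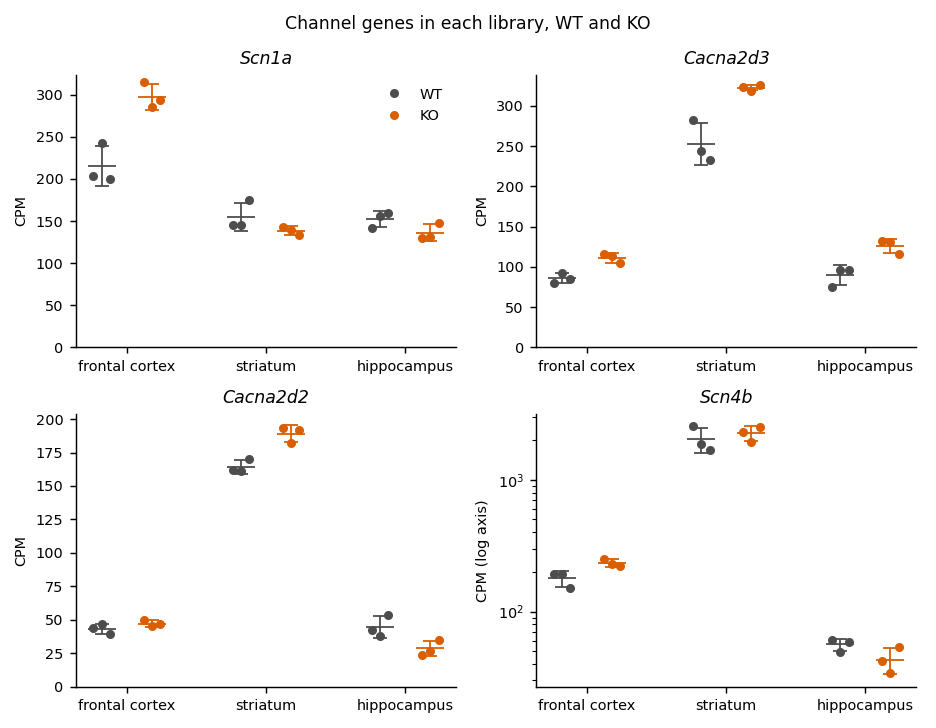
Scn1a, Cacna2d3, Cacna2d2 and Scn4b in each of the 18 libraries, in CPM (log axis for Scn4b), with the mean and SD of 3 libraries per group. KO points of Scn1a lie above WT points in frontal cortex at 285 to 315 CPM against 200 to 242 CPM, and those of Cacna2d3 lie above WT points in the 3 regions.

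**Figure D5:**
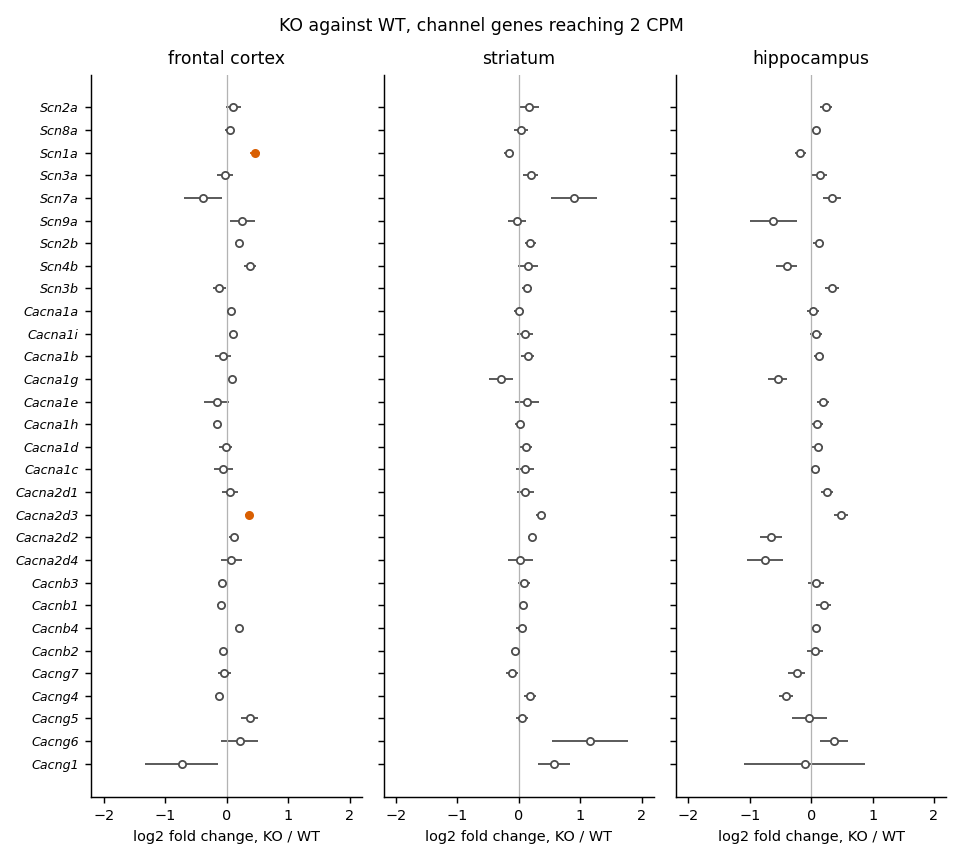
Log2 fold change of KO over WT with its SE for 30 of the channel genes that reach 2 CPM, by region, with the called genes Scn1a (0.46) and Cacna2d3 (0.36) filled. Of the 36 genes, 18 were positive in frontal cortex, 28 in striatum and 26 in hippocampus, with medians of 0.02, 0.10 and 0.08 beside -0.01, 0.00 and 0.00 over all genes.

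The other genes of the pathway were 36 listed partners, of which 35 were measured. They were 13 sodium channel partners (fibroblast growth factor homologous factors, ankyrins, adhesion proteins and ubiquitin ligases), 18 calcium channel partners (RGK proteins, calmodulins and active zone proteins) and 4 genes of the sodium leak channel complex. None was called between genotypes in any region by edgeR, where 1, 2 and 1 of the sodium partners, 3, 2 and 1 of the calcium partners and 0, 1 and 0 of the leak genes had an unadjusted p under 0.05 in frontal cortex, striatum and hippocampus, beside 15.3%, 13.5% and 9.89% of all genes. DESeq2 called 1 of them in striatum, the adhesion protein gene Nfasc, beside 3.84% of the genes to which it gave an adjusted p, and Nfasc is named after its values were seen. The smallest p among them in frontal cortex was that of Fgf12, a factor that binds sodium channels, at 0.20 on the log2 scale (SE 0.06, edgeR adjusted p = 0.13).

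Between WT striatum and frontal cortex 24 of the 35 partners were called, 9 of them higher in striatum, beside 41.5% of all genes. Between hippocampus and frontal cortex it was 15, 4 of them higher in hippocampus, beside 29.8% of all genes. Between striatum and hippocampus it was 21, 8 of them higher in striatum, beside 29.2% of all genes. Rem2, an RGK protein that lowers calcium current, was higher in striatum than in frontal cortex by 4.67 on the log2 scale (SE 0.17, edgeR adjusted p = 3.3e-08), and higher in hippocampus than in frontal cortex by 2.98 (SE 0.17). Rims1, which tethers calcium channels to release sites, was lower in striatum than in cortex, with a log2 difference of -1.85 (SE 0.11, edgeR adjusted p = 5.3e-07). Fgf12 had -1.04 (SE 0.08, edgeR adjusted p = 4.0e-06), and Fam155a, a subunit of the leak channel, -1.48 (SE 0.08, edgeR adjusted p = 4.0e-07).

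Some counts cannot be tied to a single gene. Cacna2d4 overlaps Lrtm2 on the opposite strand, and Lrtm2 had up to 4996 counts in a library where Cacna2d4 had at most 118. Scn9a overlaps the antisense gene Gm13629, Cacna1d overlaps Dcp1a and Chdh, and Cacna1c overlaps Dcp1b, all on the opposite strand. The kit kept strand, but the strand setting of the counting is not given in the sources used here, so values of Cacna2d4, Scn9a, Cacna1c and Cacna1d are uncertain to that extent. Scn1a and Cacna2d3 overlap only genes with at most 21 and 32 counts in any library.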

How the data were processed

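Per the labels, RNA of 3 brain regions from 3 WT and 3 Pcm1-/- mice was sequenced with a stranded mRNA kit. The authors deposited whole-number read counts per gene, made with Trim Galore, cutadapt, STAR and HTSeq on GRCm38. Tool versions and the strand setting of the counting are not given in the sources used here. Groups came from the sample titles, and lanes from the sample descriptions.

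Counts were tested with the quasi-likelihood test of edgeR 4.0.16 (limma 3.58.1, R 4.3.3) after TMM scaling, on the 17545 genes with at least 10 counts in a library. P-values were adjusted by the Benjamini-Hochberg method over all of them, with a threshold of 0.05. Genotypes were compared within each region from its 6 libraries, regions within each genotype from 9 libraries, and the difference of the genotype effect between regions from all 18. DESeq2 1.42.0 was the alternative test. Levels per kb used the exon length of GENCODE vM21. Tables and plots were made with Python 3.11.15, numpy 2.4.6, pandas 2.3.3 and matplotlib 3.10.9. The fit was also run on simulated counts, drawn independently for each library, so that run does not cover libraries that share an animal. Some genes of the set are counted in the totals but are not reported here by name or drawn.

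The channel genes, marker lists and partner lists were chosen with earlier results of these data known. The text gives full statistics for called genes (otherwise the 3 smallest p-values per region) and, between WT regions, for the 4 largest differences in each direction among called genes with a mean log2 CPM of at least 1 whose groups do not overlap. From each partner list at most 3 called genes per comparison were eligible. Other scalings and filters, lane, replicate blocks and leaving out each library were tried. Sums per animal and the neuron and thalamic marker covariates were added after seeing the data.

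Regions shared animals, by the animal codes in the deposited data. Deviations from the group means of the same animal correlated at 0.080 to 0.386 over 18 pairs, so the regions are not independent. P-values of the genotype tests within a region measure the spread between 3 mice of a group, with 24950537 to 33405081 gene counts per library. The tests between regions, and that of a genotype effect that differs between regions, held no animal term. They took libraries of the same animal as independent.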

Additional observations from a re-analysis of the deposited data

How the results depend on the processing

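In frontal cortex the number of channel genes called, 2, became 3 with DESeq2 and 3 without a filter (Scn4b added in both), 1 with all 18 libraries in the fit, 1 with lane added and 0 with the neuron marker level as a covariate, and lay between 0 and 4 when a library was left out (4 without WT replicate 3, 0 without WT replicate 1 or any KO replicate). Over all genes, frontal cortex gave 306 calls, 690 with DESeq2, 544 without a filter, 665 with the block and 11 to 825 when a library was left out. In striatum DESeq2 called 1 channel gene (488 genes in all) and 1 partner gene, where edgeR called 0. In hippocampus DESeq2 called 3 (220 genes in all), and the fit over 18 libraries called 2 with and 2 without lane (160 and 205 genes in all), where the region's own fit called 0. For the genotype effect that differs between regions, DESeq2 called 2 (94 genes in all), and leaving out a library gave 0 or 1. For the sums per animal the number was 0 or 1 when an animal was left out. WT and KO libraries with the same replicate number correlated at -0.269 to 0.507, with pairs under 0.1 in each region, so the numbers did not pair them. With a replicate block 3, 0 and 0 channel genes were called in frontal cortex, striatum and hippocampus. Among the genotype calls, Scn1a in frontal cortex kept its call in 9 of 14 alternatives, Cacna2d3 in frontal cortex in 6 of 14 and Cacna2d3 summed per animal in 1 of 6. The named differences between WT regions kept their calls in all 14 alternatives each, and no direction of a named gene reversed in any alternative run. Depth does not allow folds for Scn10a, Scn11a and Cacna1f.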
